A study of Mus musculus with 32 samples.

Results

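Mice with more Angptl4 mRNA in interscapular brown adipose tissue (iBAT) were set against mice with less of it that were killed at the same time of day. Of the 4 mice at each of 8 time points, the 2 with the highest Angptl4 were called high and the 2 with the lowest were called low, so that all 32 mice of the series entered, 16 as high and 16 as low. The groups were selected on the measured Angptl4 level itself, in CPM (the read count divided by the total of the library and scaled up by a fixed factor), and the level of Angptl4 in them is therefore a description and was not tested. All mice were male C57BL/6J animals, 10 weeks old and not fasted, with free access to chow and housed in mild cold under a light:dark cycle. The labels name no transgene and no agent, and high and low mice of a time point differed in no label but their number. Hours are counted from the onset of light as Zeitgeber time (ZT), by which ZT0 to ZT9 lie in the light (inactive) phase and ZT12 to ZT21 in the dark (active) phase. One library was made per mouse from total RNA of the tissue, and each mouse was sampled once.

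Angptl4 encodes a secreted protein that inhibits lipoprotein lipase (LPL), the enzyme that frees fatty acids from circulating triglycerides at the wall of capillaries. In adipose tissue it is known as a gene that rises with fasting, fatty acids and glucocorticoids through nuclear receptors such as the peroxisome proliferator-activated receptors (PPARs), and that falls with feeding and insulin. Feeding and insulin raise the genes of fatty acid synthesis, glucose use and glycogen storage in the same tissue. When the mice last ate is not recorded per animal, and in whole tissue a lower level of a transcript cannot be told apart from fewer cells that carry it.

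Angptl4 (ENSMUSG00000002289, chr17:33773750-33781830, GRCm38) ran from 54.8 CPM to 556 CPM over the 32 libraries. At ZT0 the high mice were at 500.2 and 273 CPM and the low mice at 146 and 104 CPM. At ZT3 all mice lay close together, with 556 and 522 CPM in the high mice and 505 and 492 CPM in the low mice. At ZT6 the values were 516 and 379 CPM against 367 and 250.3 CPM. The mice just inside and just outside the division were thus nearly equal at ZT3 and ZT6, where the second highest mouse had 1.03 times the level of the third. At ZT9 one mouse stood out at 313 CPM, and the next ones were at 156, 153 and 138 CPM, so that ranks 2 and 3 differed 1.02-fold. At ZT12 the high mice had 237 and 187 CPM and the low mice 99 and 86.1 CPM. At ZT15 the high mice had 228 and 86.3 CPM and the low mice 63.4 and 54.8 CPM. These 2 time points held the lowest levels of the day, and ranks 2 and 3 differed 1.88-fold at ZT12 and 1.36-fold at ZT15. At ZT18 the values were 432 and 290.5 CPM against 164 and 119 CPM, and at ZT21 they were 424 and 366 CPM against 304 and 195 CPM. The mean of the high mice exceeded that of the low mice by 1.08-fold at ZT3 and by 3.1-fold at ZT0, the extremes of the 8 time points. The means thus lay far apart at ZT0, ZT12, ZT15 and ZT18 and close together at ZT3.

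**Figure D1:**
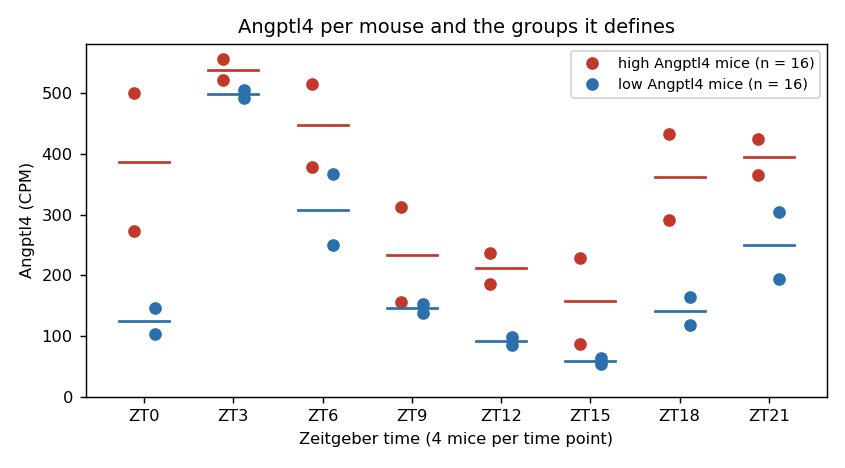
Angptl4 in CPM (vertical axis) for each of the 32 mice at the 8 time points (horizontal axis), with high mice in red, low mice in blue and a line at the mean of each pair. The pairs lie far apart at ZT0 (means 387 and 125 CPM) and almost touch at ZT3 (539 and 498 CPM).

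Library totals ran from 16300770 to 18254659 counts. Of 14 library measures compared between high and low mice (total, mitochondrially encoded share, share of the 10 most abundant genes, detected genes, scaling factor and 9 scores of cell type markers), none differed after Benjamini-Hochberg (BH) adjustment by an exact permutation test within time points over 1679616 assignments (two-sided), and 0 had an unadjusted p under 0.05. Brown adipocyte markers were present in every library, with Ucp1 at 955 CPM or more, and their mean log2 CPM was 8.15 ± 0.23 in the high and 8.12 ± 0.19 in the low mice (SD, n = 16 each). Skeletal muscle transcripts, from a tissue that lies beneath this fat pad, varied most. The mean log2 CPM of 18 muscle genes such as Acta1 and Ckm ranged from -0.89 to 8.56 in high and from -0.77 to 8.51 in low mice, with no marker at 0 in all libraries. It was 5 or more in 10 high and 6 low libraries, and the mean difference of 1.5 had an exact permutation p of 0.23 (BH-adjusted p = 0.526). At ZT18 and ZT21, which were sequenced together on lane 4, all 4 high mice had a muscle score between 6.58 and 7.82 and all 4 low mice one between -0.77 and 3.15. Within lane 2 (ZT0, ZT3 and ZT6) and lane 3 (ZT9, ZT12 and ZT15) the difference was -0.17 and -0.10. Muscle content moved with Angptl4 on lane 4, and some gene counts below are therefore also given with the score in the model or without lane 4.

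**Figure D2:**
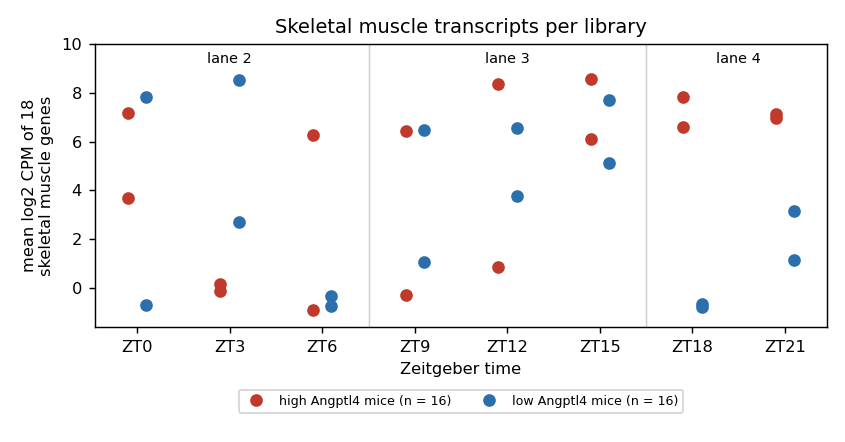
Mean log2 CPM of 18 skeletal muscle genes (vertical axis) in each of the 32 libraries by time point (horizontal axis), with high Angptl4 mice in red and low mice in blue and the sequencing lanes marked. At ZT18 and ZT21 all high mice lie at 6.58 or above and all low mice at 3.15 or below, whereas at the earlier time points the groups have no common order.

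The first comparison asked which other genes differed between high and low mice once the time of day was accounted for. The nearest to a difference were Pck1, Pdk4, Pnrc1, Btg1 and Zfp408, higher in the high mice, and Bhlhe41, Ppp1r3c, Slco4a1, Mavs, Tchp and Sh3bp4, lower in them, yet none of the 15504 genes tested passed the threshold. With edgeR's quasi-likelihood test, the time point as a block and BH adjustment, 0 genes (0.0%) had an adjusted p under 0.05, the lowest adjusted p was 0.0724, and 14 genes were under 0.1. Without adjustment 1163 genes had a p under 0.05, of which 546 (3.52% of the genes tested) were higher and 617 (3.98%) lower in the high mice. DESeq2 on the same division called 32 genes, 9 higher and 23 lower, and these included the 11 genes just named, at DESeq2 adjusted p from 0.00081 (Bhlhe41) to 0.00567 (Pdk4, Zfp408, Tchp and Sh3bp4). The edgeR count stayed at 0 in most of the fits that left out 1 mouse, 7 of 32 fits called at least 1 gene, and without replicate 2 of ZT3, a low mouse almost level with the high ones, 20 genes passed.

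Pck1 (ENSMUSG00000027513, chr2:173153048-173159273) encodes the cytosolic phosphoenolpyruvate carboxykinase, an enzyme of the route to the glycerol backbone of triglycerides in fat cells. It ran from 1547 CPM through a median of 2769.8 CPM to 4789 CPM in the high mice, and from 843 CPM through 2126 CPM to 3464 CPM in the low mice. The groups overlapped over the day, but the mean of the high mice was above that of the low mice at 8 of 8 time points, and at 5 of them both high mice lay above both low mice. At ZT18, where the time point difference was largest, the high mice had 3071 and 2529.6 CPM and the low mice 1248 and 879 CPM. The fitted difference was 1.5-fold (log2 0.59 ± 0.12, SE, edgeR adjusted p = 0.0741).

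Pdk4 (ENSMUSG00000019577, chr6:5483351-5496309) encodes a kinase that shuts pyruvate out of the mitochondrial oxidation route when fatty acids are used. Its level in high mice ran from 473 CPM through a median of 1195 CPM to 2117 CPM, and in low mice from 334 CPM through 671 CPM to 1992 CPM. The high mean was above the low mean at 8 of 8 time points and the mice were fully separated at 6. The fitted difference was 1.56-fold (log2 0.64 ± 0.13, SE, edgeR adjusted p = 0.0724).

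Pnrc1, a nuclear receptor coregulator, had a median of 41.9 CPM (25.2 to 60.3 CPM) in high and 26.5 CPM (20.3 to 47.1 CPM) in low mice and differed 1.41-fold (log2 0.50 ± 0.10). Btg1, an antiproliferative factor, had a median of 76.0 CPM (60.2 to 118.8 CPM) against 60.3 CPM (45.5 to 79.8 CPM) and differed 1.3-fold (log2 0.38 ± 0.08). The high mean was above the low mean at 7 of 8 time points for both, and ZT21 was the exception for both, with log2 differences of -0.01 and -0.06. Zfp408, a zinc finger gene, differed 1.21-fold (log2 0.27 ± 0.05) and Errfi1, an inhibitor of the epidermal growth factor receptor, 1.37-fold (log2 0.46 ± 0.10). The edgeR adjusted p was 0.0724 for Pnrc1, Btg1 and Zfp408 and 0.143 for Errfi1, which passed in DESeq2 (0.0102).

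Bhlhe41 (ENSMUSG00000030256, chr6:145858243-145865558), which encodes the clock repressor DEC2, was the gene with the smallest p among those lower in the high mice. It ran from 6.58 CPM through a median of 15.0 CPM to 33.2 CPM in high and from 8.34 CPM through 22.5 CPM to 52.6 CPM in low mice. The high mean was below the low mean at 8 of 8 time points, with full separation at 5. The fitted log2 difference was -0.62 ± 0.11 (SE, edgeR adjusted p = 0.0724).

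Ppp1r3c (ENSMUSG00000067279, chr19:36731731-36736653) encodes a subunit that directs protein phosphatase to glycogen. Its level was 46.3 to 230.5 CPM with a median of 111 CPM in high mice and 71.0 to 324 CPM with a median of 133 CPM in low mice. The high mean was lower at 8 of 8 time points and the mice were separated at 6 of them (log2 -0.46 ± 0.09, SE, edgeR adjusted p = 0.0724). Slco4a1, a transporter gene, had a log2 difference of -0.50 ± 0.10 and Mavs, an adaptor of antiviral signalling, one of -0.21 ± 0.04. Tchp, a keratin-binding protein gene, and Sh3bp4, linked to receptor endocytosis, had log2 differences of -0.32 ± 0.07 and -0.31 ± 0.06. All 4 were lower at 8 of 8 time points, and Sh3bp4 separated the mice at 7.

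**Figure D3:**
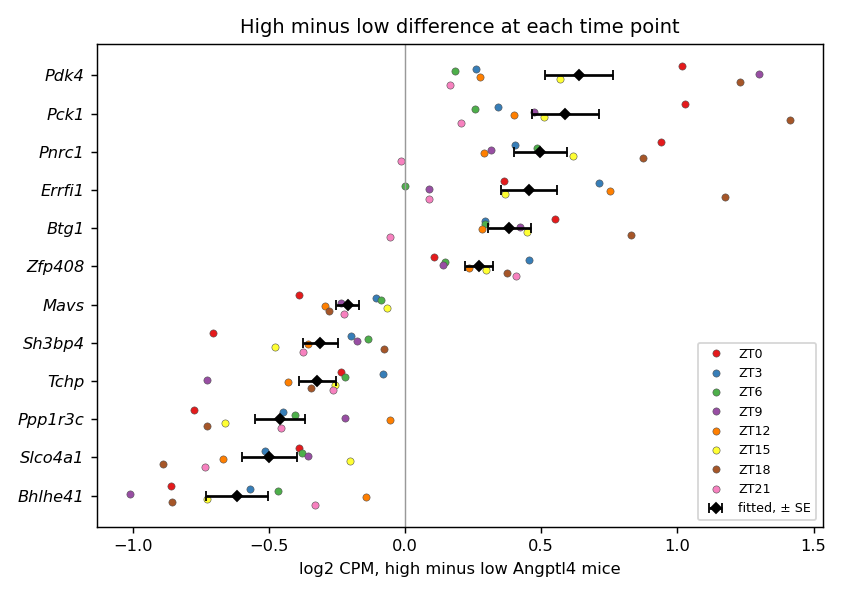
The log2 CPM of high minus low mice (horizontal axis) for the 6 genes in each direction with the smallest p (vertical axis), as coloured points for the 8 time points and a diamond with its SE for the edgeR fit. All 12 genes keep one sign at 7 or 8 of the 8 time points, Pck1 lying at or above 0.21 and Bhlhe41 at or below -0.14 throughout.

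Other genes, some with larger fold changes, did not pass in edgeR, though Irs2 (0.0465), Fosb (0.00567), Lfng (0.00567) and Ppp1r3b (0.0136) did by the adjusted p of DESeq2. Irs2, an adaptor of the insulin receptor, had a mean of 65.0 CPM ± 81.0 in high and 22.0 CPM ± 13.5 in low mice (SD, n = 16 each), with a log2 difference of 1.13 ± 0.30 (SE, edgeR adjusted p = 0.245). Its high mean rested on the high mice of ZT3, at 303 and 200.5 CPM, and those of ZT18, both at 108 CPM. Fosb, an immediate early transcription factor, was higher in mean log2 CPM at 8 of 8 time points with a log2 difference of 1.87 ± 0.45 (edgeR adjusted p = 0.172), at mean levels of 1.46 and 0.373 CPM. At ZT21 its CPM was 0.45 and 0.39 in the high mice and 1.21 and 0.06 in the low mice, so there the plain mean was lower in the high mice. Egr3, of the same class, had one of 1.51 ± 0.40 (edgeR adjusted p = 0.245). Bhlhe40, the partner of Bhlhe41 among clock repressors, had a log2 difference of -0.91 ± 0.23 (edgeR adjusted p = 0.196). Lfng, a modifier of Notch, had one of -0.66 ± 0.15 (edgeR adjusted p = 0.125), and Ppp1r3b, another glycogen-targeting subunit, one of -0.52 ± 0.12 (edgeR adjusted p = 0.167). Lpl itself, the target of the ANGPTL4 protein, was at 3773 CPM ± 983 in high and 3589 CPM ± 806 in low mice (SD, n = 16 each), a log2 difference of 0.06 ± 0.06 (edgeR adjusted p = 0.848). The mean for Ucp1, the uncoupling protein of brown fat, was 2137 CPM ± 915 and 2281 CPM ± 737 (log2 -0.11 ± 0.14, edgeR adjusted p = 0.883).

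The division into pairs treats a mouse at 522 CPM at ZT3 and one at 187 CPM at ZT12 alike, and it ignores how far apart the mice are. A second fit therefore used the log2 Angptl4 CPM of each mouse in place of the groups, with the time point as before. It had been planned only as an alternative setting of the first comparison, which called no gene. This graded fit gives a slope for each gene, the log2 change per doubling of Angptl4 among mice of the same time point. In mice with more Angptl4, some genes of the fasting response such as Pck1, Pdk4 and Txnip were higher, and some of cholesterol synthesis, fatty acid synthesis, glucose use and glycogen storage were lower. The slope passed the threshold (edgeR, BH-adjusted p under 0.05) for 355 genes, 103 higher (0.664%) and 252 lower (1.63%), and 3094 genes had an unadjusted p under 0.05. With library size alone in place of TMM scaling the split turned to 481 higher and 176 lower, the median slope of all genes moving from 0.01 to 0.06. The count depended on single mice: it was 79 without replicate 1 of ZT15, the high mouse at 228 CPM, whose library also had the highest muscle score (8.56) and the lowest brown adipocyte score of the 32, and 1051 without replicate 2 of ZT9, the mouse at 313 CPM, and 70 genes passed in all 32 fits that left out 1 mouse. Within lanes 8 of 350 of these genes testable on lane 2, 0 of 347 on lane 3 and 97 of 349 on lane 4 passed, in libraries that had also served to choose them. Fitted on lane 4 alone, where muscle content moved with Angptl4, 512 genes passed and the split was turned round, with 368 higher and 144 lower. With the muscle score in the model 221 genes passed, 208 of them among the 355, and with the mitochondrially encoded share 145 genes passed. Without lane 4, 32 of the 354 testable still passed.

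Among 22 tested genes of PPAR targets and the fasting response, 4 were higher and 0 lower with Angptl4, and the median slope of the list was 0.03 against 0.01 over all genes. The slope was 0.64 ± 0.06 (SE) for Pck1 (edgeR adjusted p = 1.46e-06), 0.58 ± 0.09 for Pdk4 (edgeR adjusted p = 0.000623) and 0.54 ± 0.08 for Txnip, an inhibitor of glucose uptake (edgeR adjusted p = 0.000495). These 3 passed without any single mouse and without lane 4. Aqp7, the glycerol channel of fat cells, had a slope of 0.17 ± 0.03 (edgeR adjusted p = 0.00499), but did not pass (0.054) when replicate 1 of ZT15 was left out, nor without lane 4 (0.0918). The remaining 18, among them Plin2, Cpt1a and Ehhadh did not pass.

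Of the LPL pathway, which here holds the other regulators of LPL, its anchor and proteins of lipoprotein uptake, 16 genes were tested and 2 were lower. Angptl8, the feeding-induced partner of the ANGPTL family, had a slope of -0.74 ± 0.14 (edgeR adjusted p = 0.00436). It passed in all 32 fits without 1 mouse, but not without lane 4. Lpl had a slope of 0.02 ± 0.05 (edgeR adjusted p = 0.845), and its sign changed with single mice of ZT18.

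De novo lipogenesis, the synthesis of fatty acids from glucose carbon, had a negative slope in 19 of 19 tested genes, 7 of which passed, with a median of -0.43 over the list against 0.01 over all genes. The regulators were Srebf1 (-0.36 ± 0.07, edgeR adjusted p = 0.00676) and Mlxipl (-0.43 ± 0.09, edgeR adjusted p = 0.00676), the transcription factors that answer to insulin and to glucose. Mid1ip1 (-0.50 ± 0.10) and Thrsp (-0.39 ± 0.11), which act on acetyl-CoA carboxylase, Acacb (-0.33 ± 0.09), one form of that enzyme, Pgd (-0.56 ± 0.14), which yields NADPH, and Pnpla3 (-0.45 ± 0.10), a lipid droplet protein, made up the rest. The core enzymes Acly and Fasn did not pass. When replicate 1 of ZT15 was left out 0 of the 7 passed, at edgeR adjusted p from 0.0554 to 0.272, and likewise 0 without lane 4. With the muscle score in the model 5 passed, and Thrsp (0.0702) and Acacb (0.0689) did not. Over all fits without 1 mouse the number lower ran from 0 to 15. In neighbouring lists the slope was negative for Tecr, of fatty acid elongation (-0.18 ± 0.05), for Lpin1 (-0.27 ± 0.06) and for Gpd1 (-0.27 ± 0.07), of triglyceride synthesis, 1 of 19 and 2 of 21 tested genes. None of these 3 passed when the same mouse was left out, or lane 4, and with the muscle score Lpin1 alone passed.

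Cholesterol synthesis had a negative slope in 17 of 17 tested genes, with 9 past the threshold and a median of -0.33. Mvd (-0.65 ± 0.12, edgeR adjusted p = 0.00289), of the mevalonate route, Sqle (-0.61 ± 0.14), squalene epoxidase, and Cyp51 (-0.45 ± 0.09), Lss (-0.43 ± 0.08), Sc5d (-0.44 ± 0.09), Nsdhl (-0.48 ± 0.13) and Dhcr7 (-0.20 ± 0.04), of the later steps, were lower. Fdps passed as well (-0.65 ± 0.11), but at 1.61 CPM its reads may be divided with near-identical copies and its value is uncertain. Without replicate 1 of ZT15, 3 of the 9 passed, without lane 4, 0, and with the muscle score, 7, Nsdhl not among them (0.0655).

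Glucose uptake and glycolysis had 6 of 25 tested genes lower and 0 higher, with a median slope of -0.15. Hk2, hexokinase, which traps glucose in the cell, had a slope of -0.57 ± 0.08 (edgeR adjusted p = 0.000495). At ZT15, the time point with its largest difference between the pairs (log2 -1.08), its level was 235 CPM in replicate 1 and 702 CPM in the other high mouse, against 851 and 873 CPM in the low mice. At ZT9 the pairs were level (log2 -0.01), and at ZT3 the high mice had more (log2 0.20). Slc2a4, the insulin-responsive glucose transporter GLUT4, had a slope of -0.31 ± 0.06 (edgeR adjusted p = 0.00329). Both passed in all 32 fits without 1 mouse. Gpi1 (-0.27 ± 0.07), Pfkp (-0.26 ± 0.07), Pdha1 (-0.23 ± 0.06) and Pkm (-0.18 ± 0.05), of glycolysis and pyruvate entry, passed with all mice and not without replicate 1 of ZT15. Without lane 4, 1 gene of the list passed, Hk2 (0.00756). With the muscle score in the model 3 of the 6 passed, and Pfkp (0.0732), Pdha1 (0.0614) and Pkm (0.0674) did not. In glycogen metabolism, 2 of 20 genes were lower, Ppp1r3b (-0.53 ± 0.09, edgeR adjusted p = 0.00216) and Ppp1r3c (-0.44 ± 0.07, edgeR adjusted p = 0.000501), and both passed without any single mouse. Without lane 4, Ppp1r3c passed (0.0414) and Ppp1r3b did not (0.0979).

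**Figure D4:**
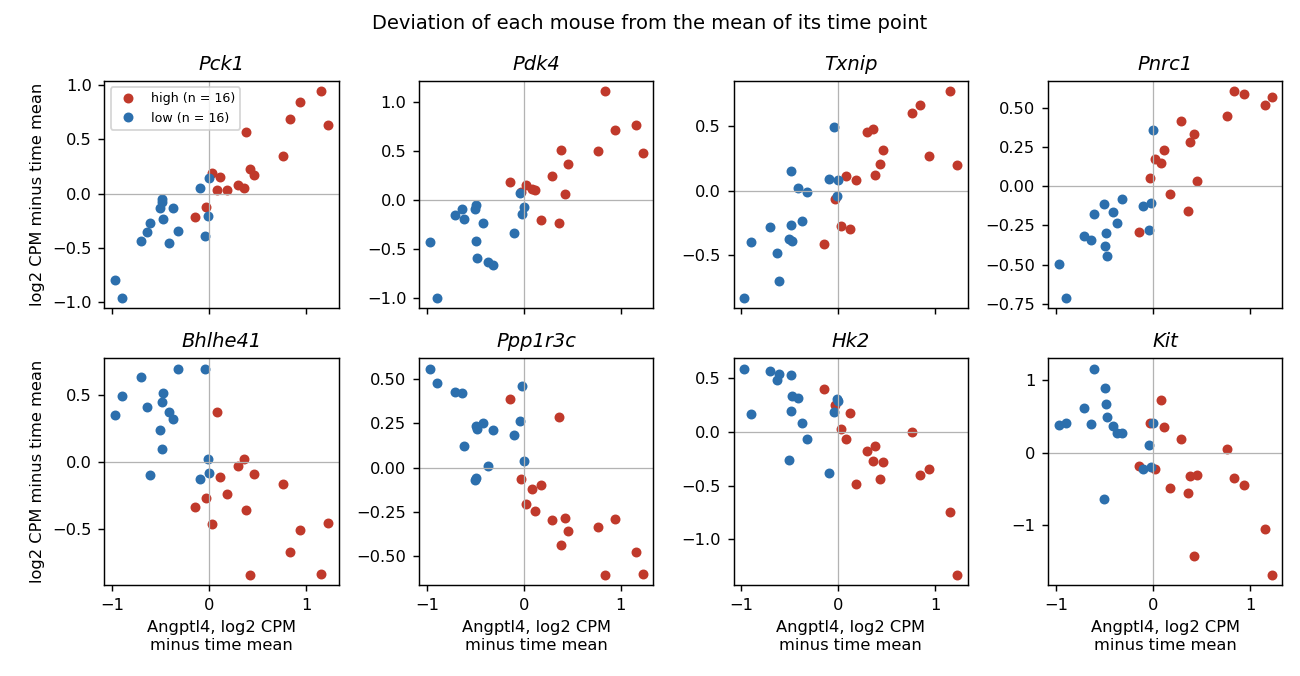
Log2 CPM of 8 genes (vertical axes) against that of Angptl4 (horizontal axes), each as the deviation of a mouse from the mean of its time point, with the 16 high mice in red and the 16 low mice in blue. Pck1, Pdk4, Txnip and Pnrc1 rise along the Angptl4 axis and Bhlhe41, Ppp1r3c, Hk2 and Kit fall along it (within-time r from 0.906 for Pck1 to -0.817 for Ppp1r3c).

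Of 18 clock genes, Bhlhe41 (-0.53 ± 0.10, edgeR adjusted p = 0.00329) and Bhlhe40 (-0.80 ± 0.18, edgeR adjusted p = 0.0191) were lower and the others did not pass. Without lane 4 neither passed (0.0979 and 0.28). Of 21 tested genes on lipolysis and its regulators, 1 was higher and 0 lower. Of 17 immediate early genes, which respond within minutes to stimulation or handling, 17 had a positive slope and 2 passed, Myc (0.64 ± 0.10, edgeR adjusted p = 0.000858) and Btg2 (0.55 ± 0.14, edgeR adjusted p = 0.0278). The median of this list was 0.42. Nr4a1, a nuclear receptor induced in the same way, had the largest slope of the listed genes that passed (1.77 ± 0.46, edgeR adjusted p = 0.0411). It did not pass without replicate 4 of ZT0 (0.0985), nor without replicate 1 of ZT15. In the division into pairs its log2 difference was opposite at ZT9 (-0.40) and ZT21 (-2.50). Of the FoxO targets and insulin signalling genes, 2 of 27 were higher, Cited2 (0.45 ± 0.09) and Ccng2 (0.21 ± 0.05), and of 19 genes of the glucocorticoid response Rgcc was (0.29 ± 0.06). Of the others named so far in this paragraph, Bhlhe40, Cited2, Ccng2 and Rgcc did not pass without replicate 1 of ZT15, at edgeR adjusted p from 0.063 to 0.17. Btg2 did not pass without replicate 4 of ZT0 (0.0984). Slc25a44 (-0.41 ± 0.07), a carrier of branched-chain amino acids, and Dld (-0.17 ± 0.04) were lower among 20 genes of branched-chain amino acid breakdown. Psph (-0.27 ± 0.07), of serine synthesis, was the 1 of 16 genes of the integrated stress response that passed. Cldn5, a tight junction gene of capillaries, was the 1 of 12 endothelial markers that passed (0.40 ± 0.09), though not without replicate 4 of ZT0 (0.153). Dld and Psph did not pass without replicate 1 of ZT15 (0.206 and 0.232), and neither did Cldn5. Without lane 4, Myc (0.0228) and Slc25a44 (0.0414) passed, and Nr4a1, Btg2, Cited2, Ccng2, Rgcc, Dld, Psph and Cldn5 did not. With the muscle score in the model Nr4a1 (0.068), Dld (0.0702) and Psph (0.0688) did not pass.

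No member passed in 6 of the 22 lists, namely fatty acid oxidation (21 tested), thermogenesis (20), hypoxia (14), heat shock and ER chaperones (20), secreted factors (19) and mitochondrially encoded genes (15). The median slopes of these lists lay between -0.08 and 0.06. The same held for the markers of skeletal muscle, blood, macrophages, lymphoid cells, white and brown adipocytes, stroma, nerve and liver. In muscle the median slope was 0.97, with 18 of 18 genes positive, beside the lane 4 difference given above. Macrophage, stroma and lymphoid markers were positive in 12 of 12, 12 of 12 and 10 of 10 genes, with medians of 0.19, 0.25 and 0.25. Over all genes 8331 slopes were positive and 7173 negative.

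**Figure D5:**
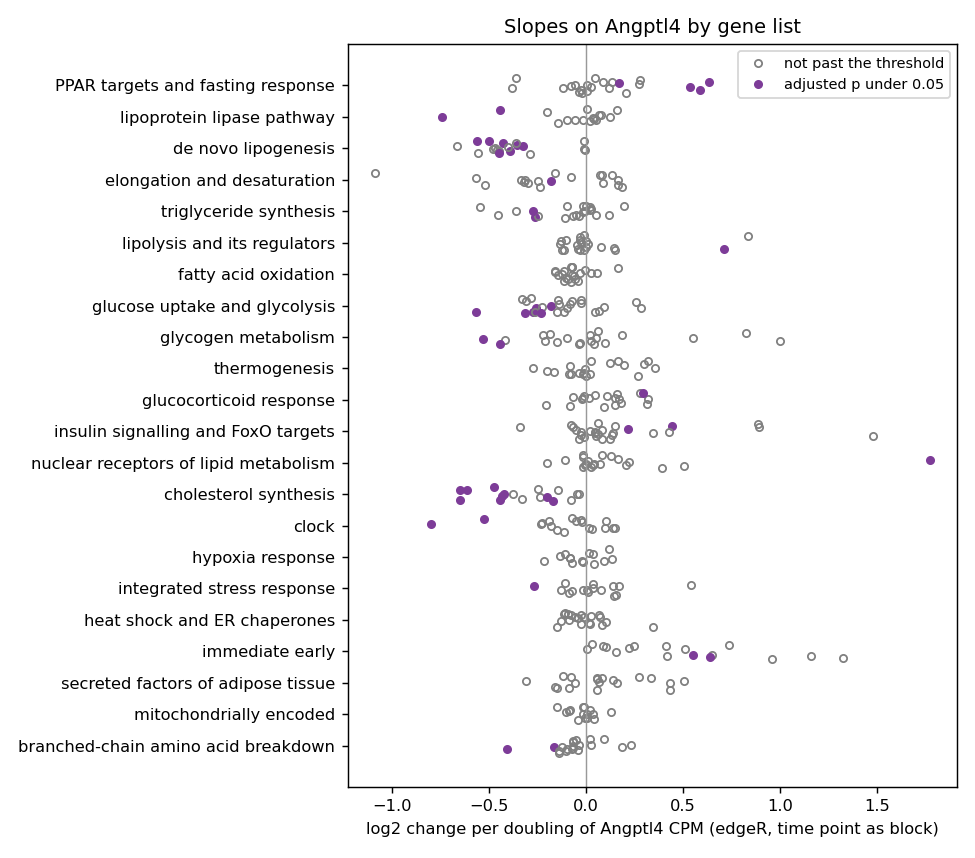
Slope on Angptl4 (horizontal axis, log2 change per doubling of Angptl4 CPM) of each tested gene in 22 lists (vertical axis), filled where the edgeR adjusted p was under 0.05. All 17 genes of cholesterol synthesis and all 19 of de novo lipogenesis lie below 0, and the mitochondrially encoded genes cluster about 0 (median -0.01).

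Whether in a list or not, the genes whose within-time deviations most resembled those of Angptl4, over 32 mice and among genes with a mean of at least 1 CPM, were Pck1 (r = 0.906), Pnrc1 (0.888), Btg1 (0.828), Pdk4 (0.813) and Txnip (0.800). The most opposed were Smg5 (-0.820), of nonsense-mediated decay, Ppp1r3c (-0.817), Nfe2l2 (-0.812), the antioxidant regulator NRF2, Sh2b2 (-0.804), an adaptor of insulin signalling, and Hyls1 (-0.801), a cilium gene. These correlations describe mice that share libraries and scaling, and they include genes already named. Among genes that passed and moved the same way in 7 or 8 time points, Cldn1 (0.86 ± 0.18), a tight junction gene, had the most positive slope after those given. Rgs2 (0.65 ± 0.17), a brake on G-protein signalling, Btc (0.63 ± 0.13), a growth factor, Nnt (0.40 ± 0.11), at a mean of 3.27 CPM, and Zfp703 (0.32 ± 0.06) came next. The most negative, besides Bhlhe40 (-0.80), were Bsn (-1.08 ± 0.19), Maff (-0.87 ± 0.19), a small MAF factor, Hyls1 (-0.79 ± 0.12), Foxred2 (-0.79 ± 0.20), Orai2 (-0.76 ± 0.15), a calcium channel subunit, Hephl1 (-0.76 ± 0.20), Kit (-0.75 ± 0.14), the stem cell factor receptor, Slc25a32 (-0.59 ± 0.11), a mitochondrial folate carrier, Acot11 (-0.59 ± 0.16), a brown fat thioesterase, and Lfng (-0.59 ± 0.12). Of these, Rgs2, Nnt, Hephl1 and Acot11 passed in 18, 17, 17 and 11 of the 32 fits without 1 mouse. Bsn, Hyls1, Kit, Slc25a32, Lfng and Zfp703 passed in all 32. Without replicate 1 of ZT15, Btc (0.171), Cldn1 (0.0763), Foxred2 (0.196) and Orai2 (0.0716) did not, and without replicate 4 of ZT0 Maff did not (0.0544). Without lane 4 the 5 most similar genes, Smg5, Ppp1r3c, Nfe2l2 and Sh2b2 passed, and Hyls1 and the genes listed by slope did not (0.0585 or more). With the muscle score Rgs2, Nnt, Foxred2, Hephl1 and Acot11 did not (0.0614 or more).

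The last question was whether the difference between high and low mice depended on the phase of the day. In the division into groups, no gene (0.0%) had a difference between light and dark phase that passed (edgeR, BH-adjusted p under 0.05). The lowest adjusted p was 0.74, 1032 genes had an unadjusted p under 0.05, and DESeq2 called 0. On simulated data this edgeR test recovered 33 of 67 genes changed 1.5-fold in the dark alone, so differences of that size can be missed. In the graded fit 0 genes passed, with 865 under an unadjusted p of 0.05 and a lowest adjusted p of 0.0503. The log2 difference of Pck1 was 0.54 in the light and 0.63 in the dark, that of Pdk4 0.71 and 0.57, and that of Bhlhe41 -0.71 and -0.53. Other genes were less alike in the 2 phases, though none passed. Cldn1 (0.20 and 1.00) and Hyls1 (-0.25 and -0.83) differed more in the dark, and Btg2 (0.77 and 0.39) more in the light. Run on 1 phase at a time, the graded fit called 2 genes in the light and 731 in the dark. On lane 4 alone, ZT18 and ZT21, 538 of 14485 genes (3.71%) differed between the 4 high and the 4 low mice, 347 higher and 191 lower, and these included 18 of 18 muscle markers, all higher, and 108 of the 355 genes of the graded fit. On this lane muscle content and Angptl4 cannot be told apart.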

How the data were processed

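The authors mapped stranded paired-end reads to the mouse genome (mm10) with GSNAP (2017-09-11) and counted reads per Ensembl gene with HTSeq (0.6.1), and deposited raw counts of 50686 genes in 32 libraries without normalization. Whether counting used the strand is not given in the sources used here. Totals lay between 16300770 and 18254659 counts. Symbols and GRCm38 coordinates come from GENCODE M21, which is not the release counted with.

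Angptl4 CPM on the column sum ranked the mice within each time point. Genes passing filterByExpr (group: time point) were scaled with TMM and tested with edgeR 4.0.16 (glmQLFit, R 4.3.3) as time point plus group, with Angptl4 left out of the BH adjustment and a threshold of 0.05. The graded fit put log2 Angptl4 CPM in place of the group. CPM in the text are TMM-scaled except those of Angptl4, and log2 CPM use a prior count of 2. DESeq2 1.42.0 was an alternative. Library measures were compared by exact permutation of mice within time points with pandas 2.3.3. The comparison of groups and its phase test, but not the graded fit, were also run on simulated data. At a 1.5-fold change the comparison of groups recovered 60 of 67 genes, and the phase test, with the change in the dark alone, 33 of 67. At a 2-fold change they recovered 65 and 51 of 67.

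The mice, the question and 22 pathway and 10 marker lists were chosen with earlier results of these data known, among them the relation of Angptl4 to Pck1 and lipogenesis, so the lists are no independent evidence. Named genes are list members, the 6 smallest p in each direction, the 12 largest differences in each direction among called genes of at least 1 CPM that moved the same way in 7 of 8 time points, and the 5 most similar and opposed profiles. As the groups gave no called gene, the rule on the 12 largest differences was applied to the graded slopes, and Irs2, Fosb, Egr3, Bhlhe40, Lfng, Ppp1r3b, Lpl and Ucp1 were added, after the values were seen. Nothing says that mice of one time point were housed apart, and p-values measure the spread between them. No 2 libraries of a time point agreed within counting noise (lowest mean chi-square per gene 7.97 over 48 pairs). Values of a few list members are not reported here.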

Additional observations from a re-analysis of the deposited data

Results flagged for a closer look

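Within the 4 mice of a time point, a highest or lowest mouse far from the others was looked for in 104 groups of values (Angptl4, 4 library measures and 8 genes at 8 time points), and 8 were found, where chance alone gives about 1 in 20. Angptl4 was far above the other mice of ZT9 in 1 high mouse, at 313 CPM, and the same mouse had Pck1 at 4789 CPM, also far above the rest. Pdk4 at 1046 CPM and Pnrc1 at 41.6 CPM stood apart in the highest Angptl4 mouse of ZT12. At ZT15 the highest library total (17466245 counts), the highest mitochondrially encoded share (26.7%) and the highest scaling factor (1.09) lay apart from the other 3 mice and belonged to 1 library, replicate 1. It is the high mouse at 228 CPM without which the graded fit called 79 genes in place of 355, and it had the lowest brown adipocyte score and the highest muscle score (8.56) of all 32 libraries. The graded fit called 221 genes with the muscle score and 145 with the mitochondrially encoded share in the model, and the brown adipocyte score was not put in the model. At ZT6 1 high mouse had a skeletal muscle score of 6.25 and the others were below 0.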

How the results depend on the processing

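The number of genes that differed between high and low mice was 0 under edgeR and stayed at 0 with DESeq2 size factors in edgeR, with library size alone, without mitochondrially encoded genes, with a minimum of 1 CPM, at an adjusted p under 0.01, against a 1.2-fold change, after ranking by scaled Angptl4, within lanes 2 and 3 and within either phase. It was 32 with DESeq2, 688 with no filter on low counts, 7 with the highest and lowest mouse only, 1 with the muscle score and 14 with the mitochondrial share in the model, 1 without ZT6, 2 without ZT9, 1 without ZT21, 538 on lane 4 alone and 355 with log2 Angptl4. Without 1 mouse it was 0 to 20. The phase difference gave 0 genes, 759 with no filter, 1 without ZT6 and 0 to 1 without 1 mouse. Why the filter and the other settings change these counts was not tested. The count of library measures that differed stayed at 0.

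The 355 genes of the graded fit became 699 with DESeq2, 657 with library size alone, 555 with a replicate block, 221 with the muscle score, 145 with the mitochondrial share, 91 at an adjusted p under 0.01, 97 without ZT0, 231 without ZT6, 1677 without ZT9, 59 without ZT15, 106 without ZT18, 176 without ZT21, 26 on lane 2 alone, 0 on lane 3 alone (787 with an unadjusted p under 0.05), 512 on lane 4 alone (368 higher and 144 lower), 45 without lane 2, 32 without lane 4, 2 in the light phase alone and 731 in the dark phase alone. Without 1 mouse they were 79 to 1051. All these alternatives of the graded fit were chosen after seeing the data.

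Mice of the same number were not paired: the correlation of their deviations had a median of -0.12 over 112 pairs, from -0.73 to 0.77, and 4 of 32 mice correlated best with their own number. The replicate block left the comparison of high and low mice at 0 genes, with 1151 under an unadjusted p of 0.05, and the phase difference at 0.

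Of the values that changed sign, the muscle score difference was -0.17 on lane 2 and -0.10 on lane 3, Lpl differed by -0.048 on lane 2, and Ucp1 by 0.024 in the light phase. The slope of Lpl was -0.00542 without ZT6, -0.022 without ZT18, -0.085 on lane 2 alone, -0.023 without lane 4 and -0.045 in the light phase, and from -0.00807 to 0.074 without 1 mouse.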
